A study of Mus musculus with 9 samples.

Results

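Collagen chain genes encode the alpha chains of the collagens, and were followed here in 9 mouse liver tumors. They were taken by name, as every gene listed in the tumor tables whose symbol is Col, a number, a and a number, which gave 44 of 52176 gene names. By textbook class, 11 of the 44 were chains of fibrillar collagens, 6 were the type IV chains of basement membranes, and 27 belonged to other collagens. No measured value was used to choose them.

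The tumors came from male C57BL/6 mice, 6 to 8 weeks old when bought, that carried orthotopic Hepa1-6 tumors, Hepa1-6 being a mouse hepatoma line. Tumors were first grown under the skin, and pieces of them were implanted in the left liver lobe, so that connective tissue of the first site could be carried along. All mice received 5 intraperitoneal injections, one every 4 days from day 10 to day 26, of PBS or of an anti-PD-1 antibody (clone RMP1-14), which blocks an inhibitory receptor of T cells. Tumors were collected on day 27 and freed of surrounding tissue, and total RNA of whole tumors was sequenced from 3 PBS-treated mice, from the mice with the 3 largest antibody-treated tumors (nonresponsive) and from those with the 3 smallest (responsive). Mice with an intermediate response were left out. The treated groups were therefore defined by tumor size, and the 3 comparisons between groups share tumors. Tumors are numbered 1 to 3 within a group as in the sample titles.

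Each collagen molecule is a triple helix of 3 alpha chains, made as procollagen in the endoplasmic reticulum, where prolines and lysines are hydroxylated, then trimmed outside the cell and cross-linked. Fibrillar collagens, above all types I and III, form the tensile fibers of connective tissue and of scarred liver, where activated stellate cells and fibroblasts are the best known producers. Type IV collagen forms the sheet-like network of basement membranes, and fibril-associated collagens such as types XII and XIV sit on the surface of fibrils. In bulk tumor RNA, fewer cells of a type and less RNA per cell cannot be told apart, and the same holds for more.

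Levels are given as FPKM, fragments scaled by transcript length and by the number of mapped fragments, which allows levels of different genes to be set side by side per length. Gene calls rest on the difference of group means of log2(FPKM + 1), tested with limma over all loci that reached an FPKM of 1 in at least 3 of the 6 tumors compared. On it, changes of low genes come out too small. With 3 tumors against 3, an exact two-sided permutation test of 1 gene cannot give a p below 0.1, a value reached by each gene below whose groups do not overlap. The adjusted p-values below are limma's after Benjamini-Hochberg adjustment over all loci, and loci with an unadjusted limma p under 0.05 are counted beside their share among all loci. The depth of each library is unknown from FPKM, although the value of 1 fragment put the relative depths of the 9 libraries between 0.944 and 1.07 of that of the first PBS tumor. The summed FPKM of entries with a gene name ranged from 651110 to 814452. Every responsive tumor reached at least 765576, whereas no nonresponsive tumor exceeded 716227 and no PBS tumor exceeded 743126. The responsive tumors thus lay above all others in this sum. Entries without a gene name held between 19.2% and 81.5% of the FPKM of a tumor. The main fit left this sum unscaled, and results after scaling to an equal sum are given below.

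Start regions were available in RefSeq (mouse assembly GRCm38.p6) for 35 of the 44 genes, and 3 are printed for chains that the results return to, as the 250 bases before the annotated start, 5′ to 3′ on the strand of the gene. Capitals mark 2 motifs searched on both strands at any position, CCAAT and TATAAA, which do not overlap. Of the 32851 start regions of all genes, 33.8% held CCAAT and 12.4% held TATAAA in a stretch of the same length.
Col1a2, one of the most abundant chains, chr6:4505368-4505617, plus strand: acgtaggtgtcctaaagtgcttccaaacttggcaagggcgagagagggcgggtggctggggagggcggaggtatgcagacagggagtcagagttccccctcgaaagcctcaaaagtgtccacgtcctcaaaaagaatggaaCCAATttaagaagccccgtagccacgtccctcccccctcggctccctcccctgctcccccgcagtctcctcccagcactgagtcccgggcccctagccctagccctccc
Col3a1, the chain of type III collagen, chr1:45311288-45311537, plus strand: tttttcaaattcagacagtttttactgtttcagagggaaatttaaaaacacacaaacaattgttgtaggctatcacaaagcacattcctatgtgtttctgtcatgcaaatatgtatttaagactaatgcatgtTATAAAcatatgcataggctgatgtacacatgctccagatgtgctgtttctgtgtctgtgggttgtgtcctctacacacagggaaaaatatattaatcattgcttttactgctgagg
Col8a1, lowest in responsive tumors, chr16:57754738-57754987, minus strand: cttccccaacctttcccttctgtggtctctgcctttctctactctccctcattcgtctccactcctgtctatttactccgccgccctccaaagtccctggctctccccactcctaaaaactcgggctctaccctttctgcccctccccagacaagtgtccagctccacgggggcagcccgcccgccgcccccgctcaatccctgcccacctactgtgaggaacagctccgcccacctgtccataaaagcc
The Col1a2 stretch held 1 CCAAT, 109 bases before the start, and the Col3a1 stretch held 1 TATAAA, 117 bases before the start. The Col8a1 stretch held neither run of letters.
Col4a1 and Col4a2 lie head to head, and their annotated starts overlap by 22 bases, printed on the plus strand because their levels are compared below.
Col4a1 and Col4a2, chr8:11312805-11312826: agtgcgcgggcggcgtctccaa

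Fibrillar collagens of types I and III made up most of the collagen signal in every tumor. Of the 44 genes, 19 reached an FPKM of 1 in all 9 tumors, 13 in some of them and 12 in none. One of the 19, Col20a1, was read in a single entry with Arfgap1 and 9230112E08Rik in all 9 tumors, with 16.5 to 22.9 FPKM, so its own level is unknown and it was left out of all sums. In PBS tumor 1 the sums include Cmss1, whose entry was merged with that of Col8a1. Summed over the other 43 genes, collagen FPKM was 1848, 3892 and 2253 in PBS tumors 1 to 3, 4444, 4308 and 2368 in the nonresponsive tumors, and 2634, 2111 and 2454 in the responsive tumors. The responsive tumors lay close together and inside the range of the PBS tumors, whereas nonresponsive tumors 1 and 2 and PBS tumor 2 stood high. Col1a1, Col1a2 and Col3a1 together gave 68.3% to 75.8% of this sum in each tumor. Among the genes that stayed under 1 FPKM in all tumors were Col4a4 and Col4a6, further basement membrane chains, and the fibril-associated Col9a1, Col19a1 and Col22a1. Col4a3, the partner of Col4a4 and Col4a5 in the kidney, was listed at 0 in all 9 tumors.

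**Figure D1:**
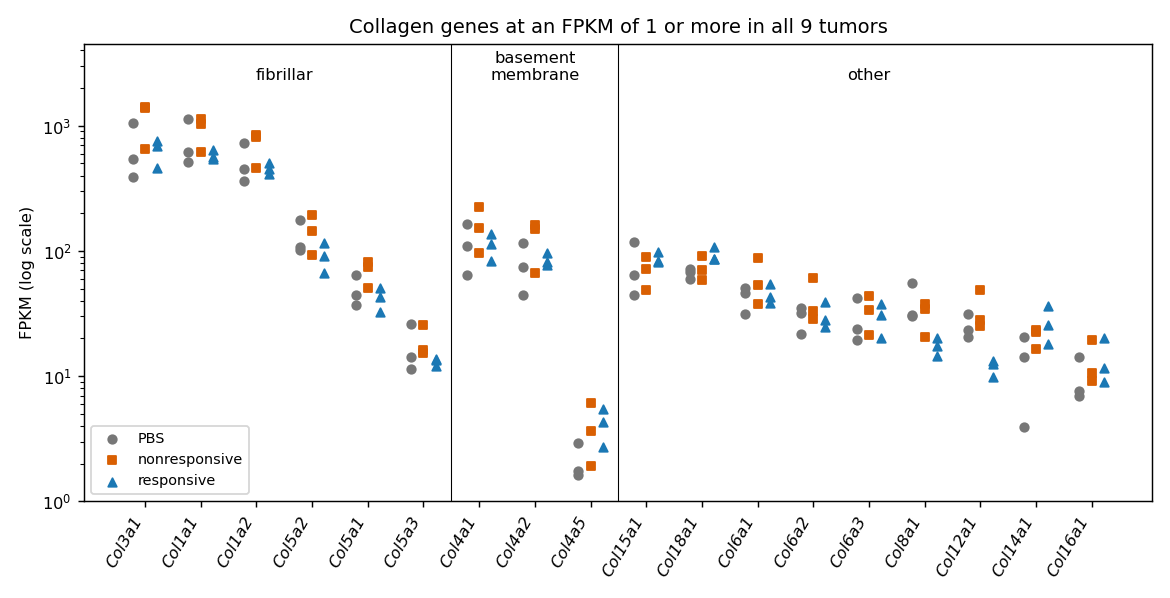
FPKM (log axis) of 18 collagen genes that reached 1 FPKM in all 9 tumors, without Col20a1, by class, with 1 point per tumor. Col1a1, Col1a2 and Col3a1 lie at 364 FPKM or more in all tumors, and Col12a1 and Col8a1 are lowest in the responsive tumors (Col8a1 of PBS tumor 1 includes Cmss1).

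Type I collagen is a heteromer of Col1a1 and Col1a2 chains, and type III a homotrimer of Col3a1. Col1a1 was 510, 1138 and 618 FPKM in the PBS tumors, 1136, 1034 and 619 in the nonresponsive tumors and 540, 568 and 644 in the responsive tumors. Col3a1 was 392, 1056 and 538 FPKM in the PBS tumors, 1400, 1396 and 649 in the nonresponsive tumors and 758, 460 and 684 in the responsive tumors. For both genes the same 3 tumors, PBS tumor 2 and nonresponsive tumors 1 and 2, were above all others, and the groups overlapped. Responsive tumors had a Col1a1 level of 584 ± 53.8 FPKM against 930 ± 274 in nonresponsive tumors (SD, n = 3 each), a difference of -0.63 on the log2 scale (SE 0.31, limma adjusted p = 0.869). For Col3a1 the difference was -0.80 (SE 0.41, limma adjusted p = 0.882), and for Col1a2 it was -0.57 (adjusted p = 0.911). Without nonresponsive tumor 3 the differences were -0.90 in Col1a1, -0.86 in Col1a2 and -1.17 in Col3a1. Its type I and III levels were near those of the responsive tumors, so larger differences without it follow from those levels. The smallest differences with 1 tumor left out were -0.46 in Col1a1, -0.42 in Col1a2 and -0.59 in Col3a1. They came without nonresponsive tumor 1, nonresponsive tumor 2 and responsive tumor 2, in that order. Over all fits with 1 tumor left out, the unadjusted limma p was 0.023 to 0.22 in Col1a1, 0.023 to 0.29 in Col1a2 and 0.018 to 0.25 in Col3a1. Against PBS tumors, the responsive tumors differed by -0.29 in Col1a1 (adjusted p = 0.617) and by 0.03 in Col3a1 (adjusted p = 0.967), and without PBS tumor 2 by 0.052 and 0.43. The ratio of Col1a1 to Col1a2 FPKM stayed between 1.08 and 1.56 over the 9 tumors. The ratio of Col3a1 to Col1a1 was 0.769 to 0.928 in PBS tumors, 1.05 to 1.35 in nonresponsive tumors and 0.810 to 1.40 in responsive tumors, so that PBS and nonresponsive tumors did not overlap in it.

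Type V and XI chains are minor fibrillar chains that enter the core of type I and type II fibrils and limit their width. Col5a1 was 36.9, 64.3 and 44.6 FPKM in PBS tumors, 75.1, 82.0 and 50.9 in nonresponsive tumors and 42.7, 50.7 and 32.7 in responsive tumors. The responsive tumors were all below the nonresponsive ones, although responsive tumor 2 and nonresponsive tumor 3 almost met, and the difference was -0.70 (SE 0.27, limma adjusted p = 0.835). Col5a3 also showed no overlap between these groups, at 12.1 to 13.7 FPKM in responsive and 15.4 to 25.7 FPKM in nonresponsive tumors, with a difference of -0.47 (adjusted p = 0.883). Col5a2, which was read together with the predicted gene Gm38211 in 6 tumors, differed between them by -0.62 (adjusted p = 0.922). Col11a1 was 0.647, 2.99 and 3.29 FPKM in PBS tumors, 10.5, 16.1 and 3.39 in nonresponsive tumors and 7.13, 0.898 and 1.52 in responsive tumors. All 3 nonresponsive tumors exceeded all PBS tumors, though nonresponsive tumor 3 did so by little. The difference in Col11a1 between them was 1.65 (SE 0.61, limma adjusted p = 0.700), with an unadjusted limma p under 0.05. It was 1.20 without PBS tumor 1, 1.84 without PBS tumor 2, 1.51 without nonresponsive tumor 1 and 1.23 without nonresponsive tumor 2, and the unadjusted p was then above 0.05. Between responsive and nonresponsive tumors Col11a1 differed by -1.49 (adjusted p = 0.860). Col27a1, a fibrillar chain known from cartilage, was listed at 0 in nonresponsive tumor 1 and responsive tumor 3 and lay between 1.24 and 3.24 FPKM in the other 7 tumors. Its differences were 0.38 between responsive and nonresponsive tumors (adjusted p = 0.986) and -0.64 between nonresponsive and PBS tumors (adjusted p = 0.700). Col2a1, the main chain of cartilage fibrils, was at most 0.157 FPKM except in nonresponsive tumor 3, at 3.01 FPKM. That tumor also had the highest summed FPKM of 9 skeletal muscle markers, led by Mylpf, Tnnt3 and Tnni2, 329, against 5.41 to 98.9 in the other tumors, and the part of carried-over tissue in its collagen values was not tested.

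**Figure D2:**
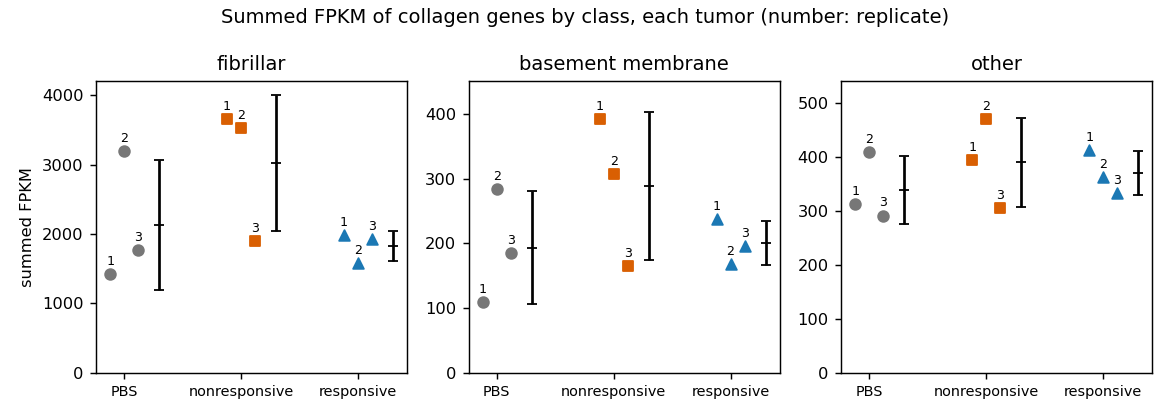
Summed FPKM of fibrillar, basement membrane and other collagen genes without Col20a1, with 1 point per tumor, the replicate number above it, and the group mean with its SD to the right (n = 3). PBS tumor 2 and nonresponsive tumors 1 and 2 are highest in the fibrillar and basement membrane sums.

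Col4a1 and Col4a2 chains form the common type IV network, in which 2 of the former join 1 of the latter. Col4a1 was 64.2, 165 and 110 FPKM in PBS tumors, 226, 151 and 97.0 in nonresponsive tumors and 136, 83.7 and 113 in responsive tumors. Col4a2 was 44.1, 115 and 74.0 FPKM in PBS tumors, 162, 150 and 66.4 in nonresponsive tumors and 95.9, 82.4 and 77.7 in responsive tumors. The same 3 tumors that led in type I chains led in Col4a2, and all 3 groups overlapped in both genes. Responsive and nonresponsive tumors differed by -0.45 in Col4a1 (adjusted p = 0.978) and by -0.46 in Col4a2 (adjusted p = 0.978), and without nonresponsive tumor 1 by -0.15 and -0.23. Without nonresponsive tumor 3 they differed by -0.76 and -0.87. Nonresponsive and PBS tumors differed by 0.69 in Col4a2 (adjusted p = 0.700), by 0.34 without PBS tumor 1 and by 1.10 without nonresponsive tumor 3. Col4a5, a chain of the specialised networks of kidney and smooth muscle, was much lower. It was 1.76, 2.94 and 1.62 FPKM in PBS tumors, 3.63, 6.08 and 1.93 in nonresponsive tumors and 5.51, 2.73 and 4.29 in responsive tumors. The responsive tumors exceeded the PBS tumors by 0.72 with an overlap of 1 tumor on each side (SE 0.29, adjusted p = 0.258), with an unadjusted limma p under 0.05, and they differed from nonresponsive tumors by 0.14 (adjusted p = 0.987). The difference from PBS tumors was 0.54 to 0.69 without 1 of PBS tumors 1 and 3 and responsive tumors 1 and 3, and the unadjusted p was then above 0.05.

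Col12a1 and Col14a1 are closely related fibril-associated chains that bind the surface of type I fibrils, and they stood apart from each other in the responsive tumors. Col12a1 was 31.5, 23.4 and 20.4 FPKM in PBS tumors, 28.3, 48.9 and 24.9 in nonresponsive tumors and 12.6, 13.1 and 9.93 in responsive tumors. All responsive tumors were below all 6 others. The group levels were 25.1 ± 5.70 FPKM in PBS, 34.0 ± 13.0 in nonresponsive and 11.9 ± 1.71 in responsive tumors (SD, n = 3 each). Responsive tumors were lower than nonresponsive tumors by a log2 difference of -1.39 (SE 0.29, limma adjusted p = 0.835) and lower than PBS tumors by -1.01 (SE 0.21, limma adjusted p = 0.246). Nonresponsive and PBS tumors differed by 0.39 (adjusted p = 0.700), and by 0.10 without nonresponsive tumor 2. Over 15 alternative settings and left-out tumors, the log2 difference in Col12a1 lay between -1.58 and -1.11 against nonresponsive tumors and between -1.15 and -0.84 against PBS tumors, each time with an unadjusted p under 0.05. Summed hepatocyte marker levels, given below with Col18a1, were higher in responsive tumors than in the others, with an overlap between responsive tumor 2 and nonresponsive tumor 1, and their part in the Col12a1 difference was not tested.

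Col14a1 was 3.95, 20.6 and 14.2 FPKM in PBS tumors, 22.7, 23.6 and 16.5 in nonresponsive tumors and 36.1, 18.1 and 25.4 in responsive tumors. PBS tumor 1 was far below the rest, and responsive tumors 1 and 3 were the highest. Responsive and PBS tumors differed by 1.18 (SE 0.58, limma adjusted p = 0.296), nonresponsive and PBS tumors by 0.88 (adjusted p = 0.700), and responsive and nonresponsive tumors by 0.29 (adjusted p = 0.978). Without PBS tumor 1 the first was 0.55 and the second 0.26, and without responsive tumor 1 the third was 0.051. The ratio of Col12a1 to Col14a1 FPKM was 0.348 to 0.726 in responsive tumors, 1.25 to 2.08 in nonresponsive tumors and 1.14 to 7.97 in PBS tumors. The ratio of Col12a1 to Col6a1, a chain of the beaded filaments around cells, was 0.231 to 0.305 in responsive tumors against 0.527 to 0.661 in nonresponsive and 0.464 to 0.680 in PBS tumors. In both ratios, which scaling of the libraries cannot alter, the responsive tumors lay below all others. The ratio of Col12a1 to Col1a1 did overlap, at 0.0154 to 0.0233 in responsive tumors against 0.0206 to 0.0617 in PBS tumors and 0.0249 to 0.0473 in nonresponsive tumors.

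**Figure D3:**
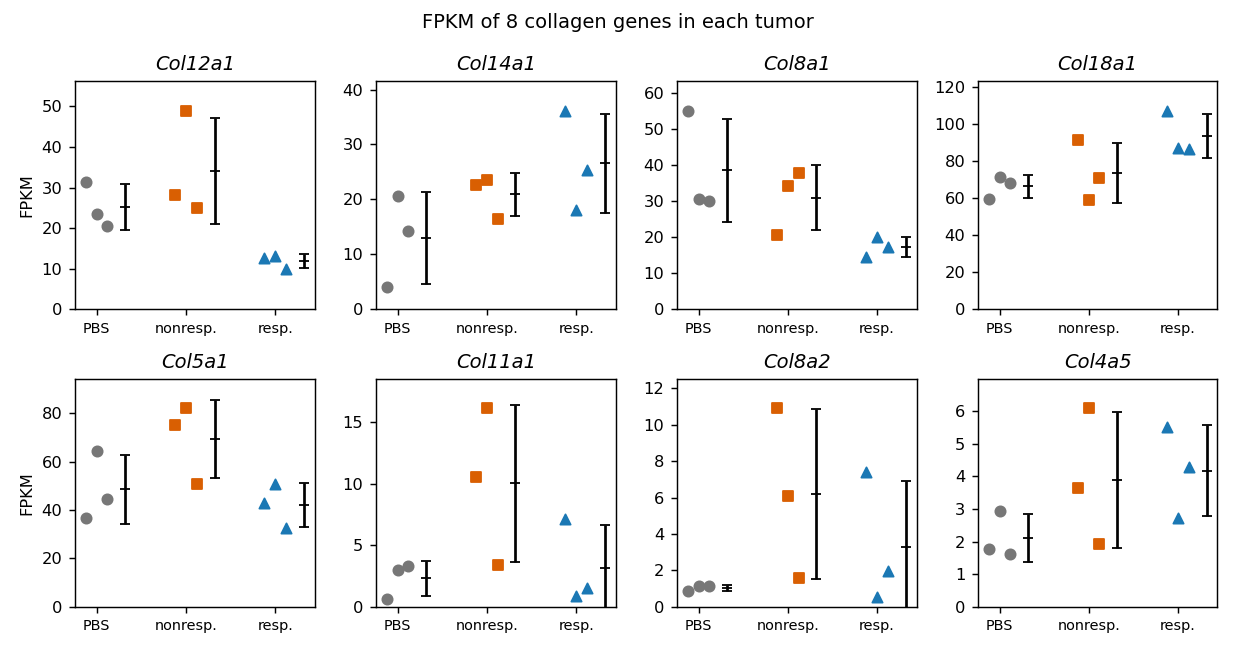
FPKM of 8 collagen genes in each tumor (1 point per tumor, group mean and SD to the right, n = 3, axes from 0). Col12a1 and Col8a1 are lowest in the 3 responsive tumors, and Col18a1 is higher there than in the PBS tumors (Col8a1 of PBS tumor 1 includes Cmss1).

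Col8a1 encodes a short-chain collagen that forms hexagonal networks under endothelia and is made by vascular smooth muscle cells. In PBS tumor 1 its entry was merged with the neighboring Cmss1, and the first value that follows is of both genes. Col8a1 was 55.1, 30.6 and 30.1 FPKM in PBS tumors, 20.6, 34.2 and 37.8 in nonresponsive tumors and 14.6, 20.2 and 17.3 in responsive tumors. All responsive tumors were below the others, nonresponsive tumor 1 only narrowly above them. The test used the sum of both genes in all tumors. On that sum the responsive tumors were lower than PBS tumors by a log2 difference of -0.76 (SE 0.22, limma adjusted p = 0.246) and differed from nonresponsive tumors by -0.56 (adjusted p = 0.871). In the comparison of responsive with nonresponsive tumors, whose Col8a1 entries all stood alone, the difference in Col8a1 by itself was -0.76 (adjusted p = 0.888), with an unadjusted limma p under 0.05. The authors' confidence interval of the Col8a1 estimate in responsive tumor 2 reached 0. Col8a2, the other type VIII chain, was 0.848, 1.14 and 1.12 FPKM in PBS tumors, 10.9, 6.11 and 1.59 in nonresponsive tumors and 7.39, 0.515 and 1.99 in responsive tumors. The nonresponsive tumors were all above the PBS tumors, by a difference of 1.57 (SE 0.55, limma adjusted p = 0.700), with an unadjusted limma p under 0.05. It was 1.08 without nonresponsive tumor 1, 1.45 without nonresponsive tumor 2 and at most 1.61 without 1 of the PBS tumors, and the unadjusted p was then above 0.05.

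Col15a1 and Col18a1 are the multiplexins, collagens of basement membrane zones that also carry heparan or chondroitin sulfate, and Col18a1 yields the fragment endostatin and is known to be made by hepatocytes. Col18a1 was 59.5, 71.7 and 68.2 FPKM in PBS tumors, 91.3, 58.9 and 71.0 in nonresponsive tumors and 107, 86.9 and 86.8 in responsive tumors. The responsive tumors were all above the PBS tumors, with 93.7 ± 11.8 against 66.5 ± 6.25 FPKM (SD, n = 3 each), a difference of 0.49 (SE 0.17, limma adjusted p = 0.247). Scaled to an equal sum of named genes, that difference was 0.33, and it was 0.39 to 0.54 without 1 of PBS tumors 1 and 3 and responsive tumors 1 and 3, in each case with an unadjusted p above 0.05. Against nonresponsive tumors it was 0.36 (adjusted p = 0.967). The summed FPKM of 12 hepatocyte markers, led by Alb, Apoa2 and Apoa1, was 415 to 4324 in the PBS group, 2713 to 10016 in the nonresponsive group and 9345 to 19319 in the responsive group. All 12 were higher in responsive than in PBS tumors, 11 of them with an unadjusted limma p under 0.05, beside 9.12% of all loci, and Hnf4a, Tat, Cps1, Alb and Ttr had the smallest p. All 12 were also higher than in nonresponsive tumors, 7 of them with an unadjusted p under 0.05, beside 4.36% of all loci, with the smallest p for Cyp2c29, Serpinc1, Tat, Hnf4a and Cyp2e1. The part of these markers in the Col18a1 difference was not tested. Col15a1, at 44.6 to 117 FPKM, differed by 0.36 between responsive and nonresponsive tumors (adjusted p = 0.978) with overlap.

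Among the remaining expressed chains, the type VI chains Col6a1, Col6a2 and Col6a3 ranged from 31.2 to 87.6, 21.7 to 60.8 and 19.6 to 43.7 FPKM, and nonresponsive tumor 2 was highest in all 3. The authors' interval of the Col6a3 estimate in PBS tumor 1 reached 0. The ratio of Col6a1 to Col6a2 stayed between 1.31 and 1.63. Col16a1, a fibril-associated chain, ranged from 6.90 to 20.4 FPKM and was highest in responsive tumor 2 and nonresponsive tumor 1. Col10a1, known from hypertrophic cartilage, was listed at 0 in 6 of the 9 tumors and was 4.67 and 1.45 FPKM in responsive tumors 2 and 3 and 1.04 FPKM in PBS tumor 3. The difference between responsive and PBS tumors was 0.92 (adjusted p = 0.431). Col9a3, a cartilage chain that ranged from 0.189 to 3.84 FPKM, differed by -0.51 between nonresponsive and PBS tumors (adjusted p = 0.726). Of 6 cartilage markers, led by Sox9, Cnmd and Comp, only Sox9, also made by bile duct and tumor epithelium, reached a mean of 1 FPKM. Col7a1, read together with Mir711, ranged from 0.683 to 3.96 FPKM.

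The question behind the comparison of responsive with nonresponsive tumors was which genes differ between the smallest and the largest tumors under the same antibody. Of the 44 genes, 25 stood in loci that passed the filter on low values, the shared Col20a1 locus included, and 8 were higher and 17 lower in the responsive tumors. None was higher with an unadjusted limma p under 0.05, beside 4.36% of all 12716 loci tested, and 2 were lower, Col12a1 and Col5a1, beside 1.56% of all loci. None had an adjusted limma p under 0.05, beside 0.0629% of all loci. No collagen locus lay above without overlap of the groups, beside 5.69% of all loci, and 3 lay below, Col12a1, Col5a1 and Col5a3, beside 4.78%. The median log2 difference was -0.44 over the 25 loci, -0.62 over 8 fibrillar, -0.45 over 3 basement membrane and -0.17 over 14 other loci, beside -0.07 over all loci tested. Without the filter on low values the medians were -0.063 over all collagen loci, -0.063 over basement membrane and 0.023 over other loci. The count with p under 0.05 was 8 without nonresponsive tumor 3, beside 616 of all loci, where the main fit had 754 of all loci. It was 1 without nonresponsive tumor 2 or responsive tumor 3, beside 305 and 330 of all loci. Scaling to an equal sum of named genes gave 7, beside 874 of all loci, and moved the median of all loci to -0.24.

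The comparison with PBS tumors asks what differs in tumors that stayed small under the antibody, and the responsive tumors were higher in 14 and lower in 12 of 26 collagen loci tested. Unadjusted limma p was under 0.05 for 2 that were higher, Col18a1 and Col4a5, beside 9.12% of all 12715 loci, and for 2 that were lower, Col12a1 and Col8a1, beside 10% of all loci. These shares of 26 are close to the background. No locus had an adjusted limma p under 0.05, beside 0.149% of all loci. The groups did not overlap for 1 higher locus, Col18a1, beside 11.8% of all loci, and for 3 lower loci, Col12a1, Col8a1 and Col23a1, a membrane-spanning chain, beside 17.0%. The median difference was 0.04 over all 26 loci, -0.23 over fibrillar, 0.23 over basement membrane and 0.09 over other loci, beside -0.11 over all loci tested. The fibrillar median was 0.044 without PBS tumor 2, and the basement membrane median was -0.12 without PBS tumor 1. Without PBS tumor 1, PBS tumor 3 or responsive tumor 3, the count with p under 0.05 was 2 in place of 4. Of all loci, 1211, 1579 and 1214 had such a p in these fits, and 2434 in the main fit. Scaling to an equal sum of named genes also gave 2, beside 3195 of all loci, and moved the median of all loci to -0.25.

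The last comparison sets tumors that grew despite the antibody against those given PBS, and the nonresponsive tumors were higher in 18 and lower in 7 of 25 collagen loci tested. Unadjusted limma p was under 0.05 for 2 that were higher, Col11a1 and Col8a2, beside 1.57% of all 12663 loci, and for none that was lower, beside 1.66%. No locus had an adjusted limma p under 0.05, beside 0.0395% of all loci. The groups did not overlap for the same 2 higher loci, beside 3.23% of all loci, and for no lower locus, beside 4.86%. The median difference was 0.39 over the 25 loci, 0.40 over fibrillar, 0.59 over basement membrane and 0.17 over other loci, beside -0.06 over all loci tested. Without the filter on low values it was 0.15 over all collagen loci and 0.053 over other loci. The count with p under 0.05 was 4 without nonresponsive tumor 3, 1 without PBS tumor 2 or PBS tumor 3, and 0 without PBS tumor 1, nonresponsive tumor 1 or nonresponsive tumor 2. The numbers of all loci with such a p in these fits are not given here, so these counts stand without a background.

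**Figure D4:**
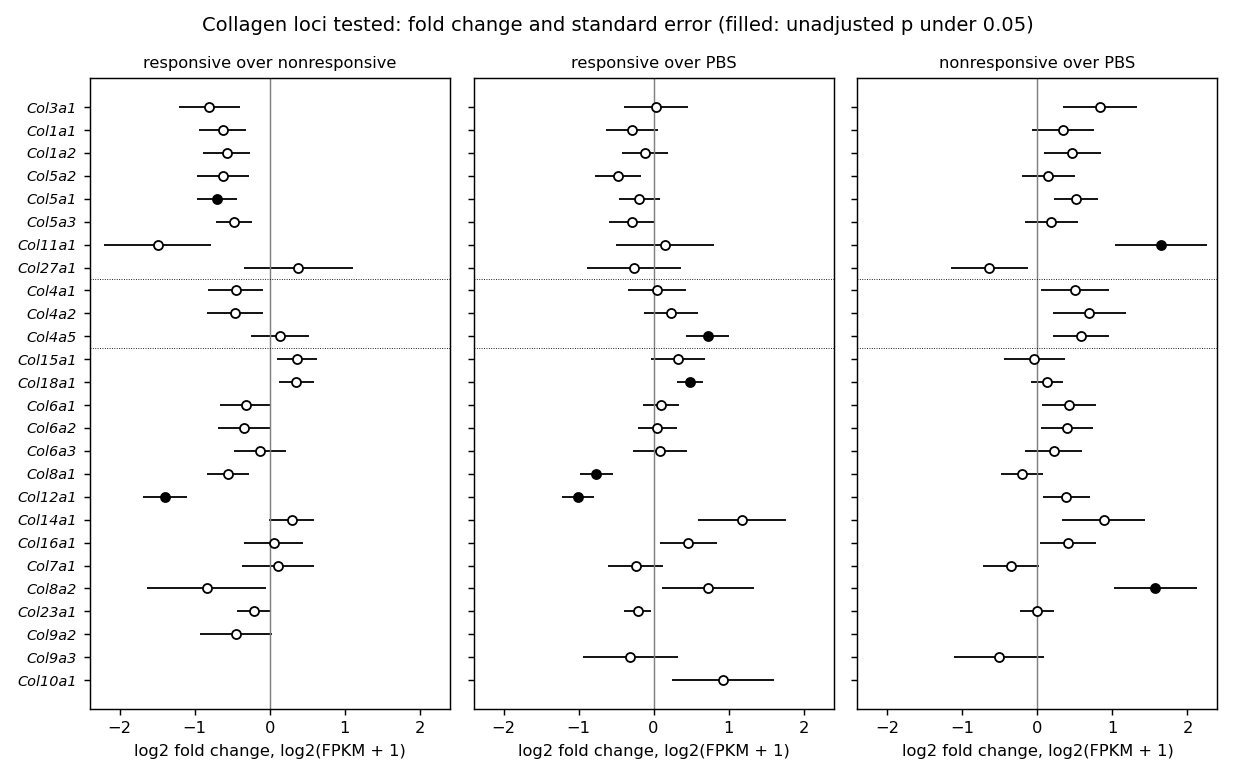
Log2 difference of group means on the log2(FPKM + 1) scale, with its SE, of the collagen loci tested other than the shared Col20a1 locus, in the 3 comparisons (filled points, unadjusted limma p under 0.05). Col12a1 is the only locus filled in both comparisons with responsive tumors, and 7 of the 8 fibrillar loci lie below 0 between responsive and nonresponsive tumors.

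Genes that make, modify and cross-link collagen were listed with 30 members, led by P4hb, a subunit of prolyl 4-hydroxylase, Ppib, a prolyl isomerase, and the collagen chaperone Serpinh1. Between responsive and nonresponsive tumors, 3 of the 28 tested were higher and 25 lower, 5 of the lower ones with an unadjusted limma p under 0.05, beside 1.56% of all loci, and the median difference was -0.39. These 5 were the lysyl hydroxylase Plod2, the collagen chaperone Fkbp10, and the lysyl oxidases Lox, Loxl1 and Loxl2. Plod2 was 22.3, 25.1 and 21.2 FPKM in PBS tumors, 38.2, 41.3 and 23.4 in nonresponsive tumors and 16.4, 19.7 and 16.1 in responsive tumors. The responsive tumors were below all others in Plod2, by -0.90 from nonresponsive tumors (SE 0.26, limma adjusted p = 0.835). Lox, which starts cross-linking, differed by -1.01 (adjusted p = 0.835), Loxl1 by -0.89 (adjusted p = 0.837), Fkbp10 by -0.63 (adjusted p = 0.835) and Loxl2 by -0.83 (adjusted p = 0.835), the last as a locus shared with Gm21451 and Mir6950. P4hb, the most abundant member, went the other way, at 373, 382 and 356 FPKM in responsive and 318, 339 and 302 in nonresponsive tumors. It was the 1 member higher without overlap, beside 5.69% of all loci, and 5 were lower without overlap, beside 4.78%.
Against PBS tumors, 6 of 27 were higher and 21 lower in responsive tumors, 4 of the lower ones with an unadjusted limma p under 0.05, beside 10% of all loci, and the median was -0.30. Pcolce2, an enhancer of procollagen trimming, was 7.27, 5.97 and 6.50 FPKM in PBS tumors, 1.35, 5.68 and 4.69 in nonresponsive tumors and 1.29, 1.60 and 1.99 in responsive tumors. The responsive tumors were below the PBS tumors by -1.54 (SE 0.18, limma adjusted p = 0.0909), and nonresponsive tumor 1 was as low as they were. The other 3 were Loxl2 at -0.75 (adjusted p = 0.246), Crtap, part of the prolyl 3-hydroxylase complex, at -0.49 (adjusted p = 0.246), and Fkbp10 at -0.45 (adjusted p = 0.246). Between nonresponsive and PBS tumors, 18 of 28 were higher and 10 lower with a median of 0.14, and Loxl1 alone had an unadjusted limma p under 0.05, at 0.83 (adjusted p = 0.700), beside 1.57% of all loci that were higher.

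Of 10 collagen receptors, led in level by the integrin subunits Itgb1 and Itga1, the latter in an entry shared with Pelo, and by Ddr2, 9 were tested. Their medians were -0.35 between responsive and nonresponsive, -0.01 between responsive and PBS, and 0.09 between nonresponsive and PBS tumors. Unadjusted limma p was under 0.05 for 3 that were lower in responsive than in PBS tumors, beside 10% of all loci, and for 1 that was higher in nonresponsive than in PBS tumors, beside 1.57%. In responsive against PBS tumors, Itga2 differed by -1.37 (adjusted p = 0.246), Ddr2, a receptor tyrosine kinase for fibrillar collagen, by -1.08 (adjusted p = 0.255), and Itgb1 by -0.43 (adjusted p = 0.249). Nonresponsive tumor 1 was also low in Itga2 and Ddr2, at 1.57 and 6.15 FPKM, where responsive tumors had 1.57 to 6.94 and 5.21 to 18.0. Itga11, a fibroblast receptor for type I collagen, was 1.37 to 2.03 FPKM in PBS tumors and 2.45 to 6.46 in nonresponsive tumors, a difference of 1.04 (adjusted p = 0.700).
Basement membrane partners such as Sparc, Hspg2 and Agrn numbered 17, and their medians were -0.37, -0.25 and 0.09 in the same order of comparisons. Nid1, which links laminin to type IV collagen, differed by -0.77 between responsive and nonresponsive tumors (adjusted p = 0.835), with an unadjusted limma p under 0.05, beside 1.56% of all loci that were lower.
The 8 fibril-binding proteoglycans were led by Dcn, Bgn and Lum, and 7 were tested, with medians of -0.80, 0.16 and 1.23. Unadjusted limma p was under 0.05 for 2 that were higher in nonresponsive than in PBS tumors, Fmod and Ogn, beside 1.57% of all loci, and for 1 that was lower in responsive than in nonresponsive tumors, Ogn, beside 1.56%. Fmod, which guides fibril growth, was 1.75, 3.67 and 6.58 FPKM in PBS tumors, 38.0, 45.5 and 10.6 in nonresponsive tumors and 32.1, 2.12 and 12.9 in responsive tumors. The nonresponsive tumors were all above the PBS tumors in Fmod, by 2.58 (SE 0.63, limma adjusted p = 0.700). Ogn differed by 1.78 between nonresponsive and PBS tumors (adjusted p = 0.700) and by -1.64 between responsive and nonresponsive tumors (adjusted p = 0.835).

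Markers of cell types known to make collagen were followed beside the chains. The summed FPKM of 13 fibroblast and stellate cell markers, led by Acta2, Postn and Tagln, the last in a locus shared with Pafah1b2 and Sidt2, was 318 to 480 in the PBS group, 444 to 982 in the nonresponsive group and 302 to 650 in the responsive group. Between nonresponsive and PBS tumors 11 of the 13 were higher, 2 of them, Dpt and Lrat, with an unadjusted limma p under 0.05, beside 1.57% of all loci, and the median difference was 0.44. Between responsive and nonresponsive tumors 5 were higher and 8 lower, with a median of -0.09, and only Tagln, at -0.53, had an unadjusted p under 0.05, beside 1.56% of all loci that were lower. Between responsive and PBS tumors 8 were higher and 5 lower, with a median of 0.30 where the fibrillar collagens had -0.23. Dpt at 1.36 and Lrat at 1.67 were higher there with an unadjusted p under 0.05, beside 9.12% of all loci, and Fap at -0.53 was lower, beside 10%.

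The sums of 11 endothelial markers, led by Plvap, Eng and Pecam1, were 132 to 266, 201 to 413 and 199 to 331 FPKM in PBS, nonresponsive and responsive tumors, and none had an unadjusted p under 0.05. All 11 were higher in nonresponsive than in PBS tumors (median 0.52), and 10 were higher in responsive than in PBS tumors (median 0.39). Between responsive and nonresponsive tumors 1 was higher and 10 lower, with a median of -0.09. Sums of 8 macrophage markers, led by C1qb, C1qc and C1qa, were 715 to 1513, 1366 to 2276 and 1221 to 2175 FPKM. C1qb and C1qc were merged in 1 entry in nonresponsive tumors 1 and 2, and C1qc was below C1qa in all other tumors. Tested as 7 loci, all were higher than in PBS tumors in nonresponsive (median 0.77) and in responsive tumors (median 0.56). Between responsive and nonresponsive tumors 1 was higher and 6 lower, with a median of -0.34. C1qa was higher in responsive and Adgre1 in nonresponsive than in PBS tumors with an unadjusted p under 0.05. The 5 epidermis and dermis markers, led by Krt5, Krt14 and Dsp, summed to 26 to 289 FPKM in PBS, 3.87 to 35.4 in the nonresponsive group and 9.07 to 129 in the responsive group. The high sums came from PBS tumors 1 and 3 and responsive tumor 3, in which the entry of Krt5 was merged with that of Krt8, and Krt5 was at most 0.0824 FPKM in the other 6 tumors. Sums of 4 mesothelial markers, led by Msln, Wt1 and Lrrn4, stayed between 4.98 and 26.3 FPKM, and Msln was lower in nonresponsive than in PBS tumors, with an unadjusted p under 0.05. Wt1 went the other way, at 5.36, 11.0 and 2.09 FPKM in nonresponsive and 1.80, 2.06 and 1.65 in PBS tumors. It was higher without overlap, though narrowly, beside 3.23% of all loci. Sums of 7 Hepa1-6 and fetal liver markers, led by Krt18, Krt8 and Afp, were 450 to 774, 125 to 920 and 200 to 765 FPKM in PBS, nonresponsive and responsive tumors. Nonresponsive tumor 1 and responsive tumor 1 had the lowest sums of all tumors, and also the lowest Afp, at 0.321 and 0.646 FPKM. With an unadjusted p under 0.05, H19, read with Mir675, was lower in responsive than in nonresponsive tumors and Igf2, read with Gm49394, was higher in nonresponsive than in PBS tumors. By the same measure the muscle gene Mylpf was lower in responsive than in nonresponsive tumors, and Sox9 was lower in nonresponsive than in PBS tumors. The joined locus of Lsp1 and the muscle gene Tnnt3 was higher in nonresponsive than in PBS tumors, also by this measure. Tnnt3 by itself was below all PBS tumors in nonresponsive tumors 1 and 2, at 0.563 and 0.432 FPKM, and above them in nonresponsive tumor 3. The call on the joined locus therefore gives no direction for Tnnt3 itself. No marker had an adjusted limma p under 0.05, and the shares of all loci with an unadjusted p under 0.05 are those given for each comparison above. The part of these cell types in the collagen differences was not tested.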

How the data were processed

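Whole-tumor RNA libraries (TruSeq kit) of 9 tumors were aligned by the authors with TopHat2 2.1.1 and Bowtie2 2.2.4, per the labels. Each tumor's deposited table gives FPKM per gene from Cufflinks, with confidence bounds. The build named there did not match the positions in the files, so no positions from the files are printed. A further deposited table of the authors' own comparisons was not used. FPKM was summed per gene name, and genes that shared an entry in any tumor were joined into 1 locus (48254 loci), so neighbors with overlapping transcripts are not separated. limma 3.58.1 in R 4.3.3 with a mean-variance trend was fitted to log2(FPKM + 1) of the 2 groups compared, over loci with FPKM of at least 1 in 3 of 6 tumors, with Benjamini-Hochberg adjustment. Data of responsive against PBS tumors were simulated with 12715 loci, 200 of them changed 4-fold in FPKM + 1. Among simulated loci that passed the filter, 92.4% of changed and 5.29% of unchanged ones had an unadjusted p under 0.05. That change is larger than every collagen difference with all tumors in the main fit, and the noise was independent between loci. How often smaller changes are found was not measured. Figures used matplotlib 3.10.9.

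Collagen genes were named where an unadjusted p was under 0.05, where they were among the 4 highest means of a class, or where a difference was among the 2 largest or smallest of a comparison. In the other lists, the 3 highest means and up to 5 genes per comparison with an unadjusted p under 0.05 were named, except 1 gene that is not reported here. Genes and lists were chosen with earlier results of these data known. Each group holds 3 separate mice. Replicate numbers did not pair tumors across groups. Alternatives were another pseudocount, filter, scaling, fit and joining rule, and each tumor left out in turn.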

Additional observations from a re-analysis of the deposited data

How the results depend on the processing

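No collagen locus had an adjusted p under 0.05 under any alternative tried. The number of collagen loci with an unadjusted limma p under 0.05 between responsive and nonresponsive tumors (2) was 1 with upper-quartile scaling and with an ordinary Student model, 7 with scaling to an equal sum of named genes, and 1 to 8 with 1 tumor left out. All loci with such a p numbered 754 in the main fit, 732, 707 and 874 with these settings in turn, and 305 to 1428 with 1 tumor left out. Between responsive and PBS tumors (4) the collagen count was 2 with scaling to an equal sum and 2 to 6 with 1 tumor left out. All loci with such a p numbered 2434 in the main fit, 3195 with that scaling and 1041 to 3998 with 1 tumor left out. Between nonresponsive and PBS tumors (2) the collagen count was 4 without a filter, 0 with an FPKM minimum of 5, 1 with all 9 tumors in 1 fit, 0 with the ordinary Student model, and 0 to 4 with 1 tumor left out. All loci with such a p numbered 409 in the main fit, 789 without a filter and 243 with the FPKM minimum of 5. For the other alternatives in this comparison that number is not given here. The replicate numbers did not pair the tumors (correlations of same-numbered deviations from -0.50 to 0.64). With the replicate block the collagen counts were 1 between responsive and PBS tumors, beside 989 of all loci, and 1 between nonresponsive and PBS tumors. The median log2 difference of other collagens between responsive and PBS tumors (0.09) was -0.060 with scaling to an equal sum and -0.040 to 0.23 with 1 tumor left out. For all collagen loci it was -0.13 to 0.20 in that comparison with 1 tumor left out, -0.57 to -0.23 between responsive and nonresponsive, and 0.19 to 0.61 between nonresponsive and PBS tumors. With 1 tumor left out, the fibrillar median between responsive and PBS tumors was -0.35 to 0.044 and the basement membrane median -0.12 to 0.56. Without a filter, the medians between responsive and nonresponsive tumors were -0.063 over all collagen loci, -0.063 over basement membrane and 0.023 over other loci, the last with its direction turned. Scaling to an equal sum also turned the differences of Col4a5 between responsive and nonresponsive tumors (-0.024) and of Col3a1 between responsive and PBS tumors (-0.12). With 1 tumor left out, the direction turned for Col27a1 (-0.12 to 1.07) and Col4a5 (-0.18 to 0.45) between responsive and nonresponsive tumors, and for Col1a1 (-0.53 to 0.052) and Col3a1 (-0.28 to 0.43) between responsive and PBS tumors. The causes were not tested. A fit with 1 tumor left out leaves 2 tumors in that group. Groups of 3 tumors, and FPKM without counts, limit what could be detected, and low chains rest on few fragments.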

Other observations

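The ratio of Col4a1 to Col4a2 FPKM was between 1.39 and 1.49 in 7 of the 9 tumors, and was 1.01 in nonresponsive tumor 2 and 1.02 in responsive tumor 2. These 2 tumors carry different group labels, and Col4a1 and Col4a2 levels in both lay within the range of the other tumors. Over the 9 tumors, the Pearson correlation of log2(FPKM + 1) with Col1a1 was 0.95 for Col1a2, 0.90 for Col3a1, 0.85 for Col5a2, 0.84 for Col4a1 and 0.84 for Col4a2, and was -0.13 for Col18a1. These values describe 9 points that share library scaling and group differences. After the group means were removed, they were 0.95 for Col1a2, 0.90 for Col15a1 and 0.05 for Col12a1.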
